A study of Homo sapiens with 36 samples.

Results

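BRAFi + MEKi was compared with DMSO in WM793TR-NR2F1 melanoma cells without doxycycline (DOX). The members are the 6 libraries that the labels give to these 2 groups, 3 for each, out of 36 libraries in the series. WM793TR-NR2F1 is a BRAF-mutant human melanoma line that carries the Tet repressor together with a DOX-inducible NR2F1 cDNA, and both groups carry that construct. The labels call the cells metastatic melanoma. The DMSO group received the solvent for 72 hours. The other group received PLX4720, a BRAF inhibitor, at 1 µM together with PD0325901, a MEK inhibitor, at 35 nM for 72 hours. Both were grown in medium with 2% FBS, and neither received DOX during those 72 hours. The study's methods describe 24 hours of DOX before treatment and set no group apart, so the text does not tell whether these cells had DOX at that stage. The study states that its in vitro replicates come from independent experiments. It is a single line at a single dose and a single time point.

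Mutant BRAF signals without an outside cue through the kinases MEK and ERK, and ERK switches on the transcription factors that drive growth and division. ERK also induces its own brakes, the dual-specificity phosphatases and the Sprouty proteins, so the mRNA level of these genes serves as a readout of pathway activity. Cells that survive inhibition of BRAF and MEK are known for slow division, for changes along the axis from the pigment-producing to the neural-crest-like state, and for changes in metabolism and in antigen presentation.

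The deposited value is a normalized expression level per gene, not a read count and not corrected for gene length. The smallest common value of a library gives an estimate of its depth. DMSO replicate 1 stood apart with about 6600000 reads, and the other 5 libraries had between 23100000 and 37300000. A single read in DMSO replicate 1 was worth about 5.09 units, so its low values are coarse. Log2 values of libraries within a group correlated across genes with r between 0.964 and 0.982, and those of libraries of different groups with r between 0.929 and 0.953. Genes are not independent replicates in these correlations. The values summed to between 33385432 and 34621958 in DMSO and to between 28572328 and 29958306 in treated libraries. The melanocytic markers SOX10, MITF, PAX3, S100B and S100A1 were present in all 6 libraries, whereas MLANA and TYR were at 0 in all 6. Of 17 markers of other cell types, 5 were at 0 in all 6 libraries (among them KRT5, KRT1, CDH1 and CD3E), and the summed level of the 17 was between 3090 and 4669 in DMSO and between 2221 and 2457 in treated libraries. Most of that sum is PDGFRA, which melanoma cells can express. PTPRC, a leukocyte gene, was at 90.96 in DMSO replicate 1, at 0.7037 in replicate 2 and at 0 in the other 4 libraries, and its part in other values of replicate 1 was not tested.

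The response was broad. Genes were tested where the mean of any WM793 group reached 1. Of these 22074 genes, 4512 (20.4%) rose and 3724 (16.9%) fell, and 37.3% were called either way (limma's moderated test on log2(value + 1), Benjamini-Hochberg adjusted p under 0.05). In 5618 genes (25.5%) all 3 treated libraries lay above all 3 DMSO libraries, and in 4401 (19.9%) all lay below. Among called genes, 1336 rose and 512 fell by more than 2 on the log2 scale, and 58 rose and 33 fell by more than 5. The median log2 fold change over all genes tested was 0.15. When all libraries were brought to an equal total the median was 0.33, with 6030 genes raised and 2693 lowered, so that 69.13% of calls were rises against 54.78% in the deposited scaling. Log2 fold changes below are on the log2(value + 1) scale of the deposited values and are read against the median of 0.15. In bulk libraries, fewer cells of a kind and less RNA per cell cannot be told apart.

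**Figure D1:**
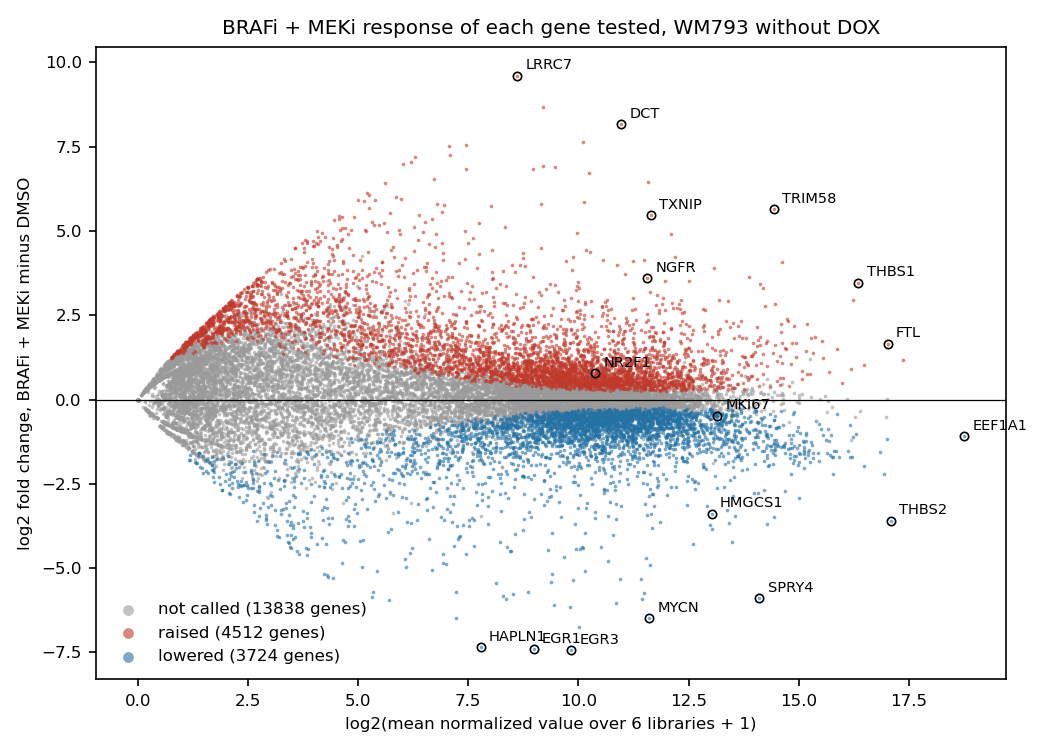
Log2 fold change (BRAFi + MEKi minus DMSO) of each of the 22074 genes tested against the log2 of its mean normalized value over the 6 libraries plus 1; red points rose, blue points fell, grey points were not called. Circled genes run from LRRC7, whose height is set by the pseudocount because it was at 0 in DMSO, to EGR3 at -7.44, and EEF1A1, the gene with the highest mean level, lies at -1.09.

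The make-up of the most abundant transcripts changed. EEF1A1, which delivers aminoacyl-tRNA to the ribosome, had the highest mean in both groups and fell from 601358 ± 47174 to 281656 ± 18307 (SD, n = 3; log2 fold change -1.09, SE 0.14, limma adjusted p = 4.4e-05). THBS2, a secreted matrix glycoprotein and the second most abundant gene in DMSO, measured 254309, 276809 and 237980 in DMSO and 20043, 24911 and 19233 in treated libraries. It fell 12-fold between the group means. IGFBP3, which binds insulin-like growth factors, measured 125981, 292043 and 199948 against 36112, 31643 and 66254. The highest treated library of IGFBP3 stayed below its lowest DMSO library. In their place rose SPARC, a matrix protein, from 102121 ± 17434 to 236583 ± 67763, and ANXA2, a calcium-dependent membrane-binding protein, from 17563 ± 4513 to 134919 ± 26907 (SD, n = 3). THBS1, the paralog of THBS2, measured 7689, 17428 and 18448 in DMSO and 122677, 137998 and 196250 in treated libraries. Its rise of 3.46 on the log2 scale (SE 0.38, limma adjusted p = 9.9e-06) ran opposite to the fall of THBS2 by 3.59 (SE 0.17, adjusted p = 1.6e-08). FTL and FTH1, the light and heavy chains of the iron store ferritin, both rose, with FTL at 43845, 71314 and 80491 against 215963, 178444 and 204359. FN1, the gene of fibronectin, was at 130401 ± 5588 and 131705 ± 22182 (SD, n = 3; log2 fold change 0.00, SE 0.16, limma adjusted p = 1). EEF1A1, FTL, FTH1, GAPDH and the ribosomal protein genes have many processed copies in the genome, and the authors' counting may have split reads among them.

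Of 26 genes known as targets or feedback regulators of ERK, 21 fell and none rose (limma, all genes tested; background 16.9% lowered), with a median log2 fold change of -1.69. SPRY4, a feedback inhibitor of receptor signalling, measured 38213, 34443 and 31074 in DMSO and 954, 446 and 452 in treated libraries. It fell 56.0-fold between the group means (log2 fold change -5.90, SE 0.29, limma adjusted p = 2.0e-08). DUSP6, the phosphatase that acts on ERK in the cytoplasm, measured 4070, 5183 and 3470 against 1283, 565 and 927. The groups of DUSP6 did not overlap, and it fell by 2.26 on the log2 scale (SE 0.28, adjusted p = 3.3e-05). Other feedback genes fell as well, DUSP4 by 1.67, SPRY2 by 1.82, DUSP5 by 1.89 and SPRY1 by 3.49. The ETS-family factors ETV1, ETV4 and ETV5 fell by 2.80, 3.34 and 1.72, and PHLDA1 by 0.96. VGF, a secreted neuropeptide precursor, fell by 4.68, and IER3, an early response gene, by 3.45. The residual level differed between these genes. The mean of SPRY4 went from 34576 to 617, whereas that of PHLDA1 went from 23621 to 12193.

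EGR1 and EGR3 are zinc-finger factors that are switched on within minutes of ERK activation. On the log2(value + 1) scale they had the largest falls of any gene that met the naming rule. HAPLN1 fell by 7.35, and since some treated values of HAPLN1 and EGR1 were near 0, their order depends on the pseudocount of 1. EGR3 measured 2123, 1496 and 1839 in DMSO and 16.2, 6.41 and 7.79 in treated libraries (log2 fold change -7.44, SE 0.35, limma adjusted p = 1.5e-08). EGR1 measured 1330, 939 and 738 against 13.1, 6.33 and 0.875 (log2 fold change -7.40, SE 0.59, limma adjusted p = 6.4e-07). All treated libraries of both genes lay far below all DMSO libraries. The related EGR2 was low in both groups (41.5, 34.4 and 49.97 against 15.2, 30.1 and 38.6) and was not called (adjusted p = 0.33). FOS measured 148, 139.9 and 101 against 66.6, 68.7 and 43.7, without overlap and without a call (log2 fold change -1.12, SE 0.45, limma adjusted p = 0.068), and it was called in a fit of the 6 libraries alone (adjusted p = 0.03). FOSL1, which encodes an AP-1 subunit, measured 2236, 4803 and 5520 against 1482, 5966 and 6234, with replicate 1 low in both groups (log2 fold change -0.04, SE 0.59, adjusted p = 0.98). PLAUR was not called either. EPHA2, a receptor tyrosine kinase, measured 1685, 2558 and 2332 against 1997, 4603 and 4491 and was not called (log2 fold change 0.68, SE 0.30, limma adjusted p = 0.096). It was called as raised in 5 other settings, with log2 fold changes from 0.68 with the replicate block (adjusted p = 0.0027) to 1.07 without treated replicate 1 (0.0068).

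The promoter of EGR1 is shown because it was the listed ERK target, among those searched, with a match to the CArG box, the element bound by serum response factor, in the bases just before its start. The 250 bases before the EGR1 start are given 5′ to 3′ on the plus strand, chr5:138465229-138465478 (RefSeq, GRCh38.p14), with the CArG matches in capitals.
EGR1: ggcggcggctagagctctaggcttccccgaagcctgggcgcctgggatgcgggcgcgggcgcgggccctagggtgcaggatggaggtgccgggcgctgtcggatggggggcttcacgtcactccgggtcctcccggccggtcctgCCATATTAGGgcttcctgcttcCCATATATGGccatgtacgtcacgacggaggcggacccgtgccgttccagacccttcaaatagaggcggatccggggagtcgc
The first letters of the matches lie 105 and 83 bases before the start. Of 16 list members with a RefSeq promoter in the table searched, 1 had a match in this window, against 1.14% of 27305 promoters. A match is a description of letters and not a measured binding site.

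MYCN and MYC both fell, to different extents. MYCN, a member of the MYC family that is best known from neuroblastoma, measured 6307, 6194 and 5921 in DMSO and 65.4, 68.4 and 68.0 in treated libraries. The spread within each group was small against the 91.3-fold difference of the means (log2 fold change -6.49, SE 0.31, limma adjusted p = 1.5e-08). MYCNOS, its antisense neighbour, also fell (adjusted p = 0.00039), and since the library kit does not mark the strand, reads of overlapping genes on opposite strands cannot be told apart. MYC, which is also on the ERK list, measured 2118, 1983 and 1609 against 518, 638 and 636, a fall of 1.67 (SE 0.17, limma adjusted p = 5.6e-06). The other genes among the 10 largest falls were HAPLN1, a link protein of the hyaluronan matrix (518, 582 and 206 against 7.27, 0 and 0.756), SLIT1, a secreted guidance cue (2317, 1770 and 2047 against 30.1, 11.0 and 17.4), RAB17, a small GTPase of membrane traffic (1993, 1166 and 945 against 18.8, 19.1 and 16.8), SERPIND1, PLAC8, STC1 and IL24. For STC1 and IL24, DMSO replicate 1 was far above the other DMSO libraries. IL24, a cytokine of the IL-10 family, measured 14190, 1239 and 1034 in DMSO and 144, 24.3 and 21.6 in treated libraries, so replicate 1 was highest in both groups.

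**Figure D2:**
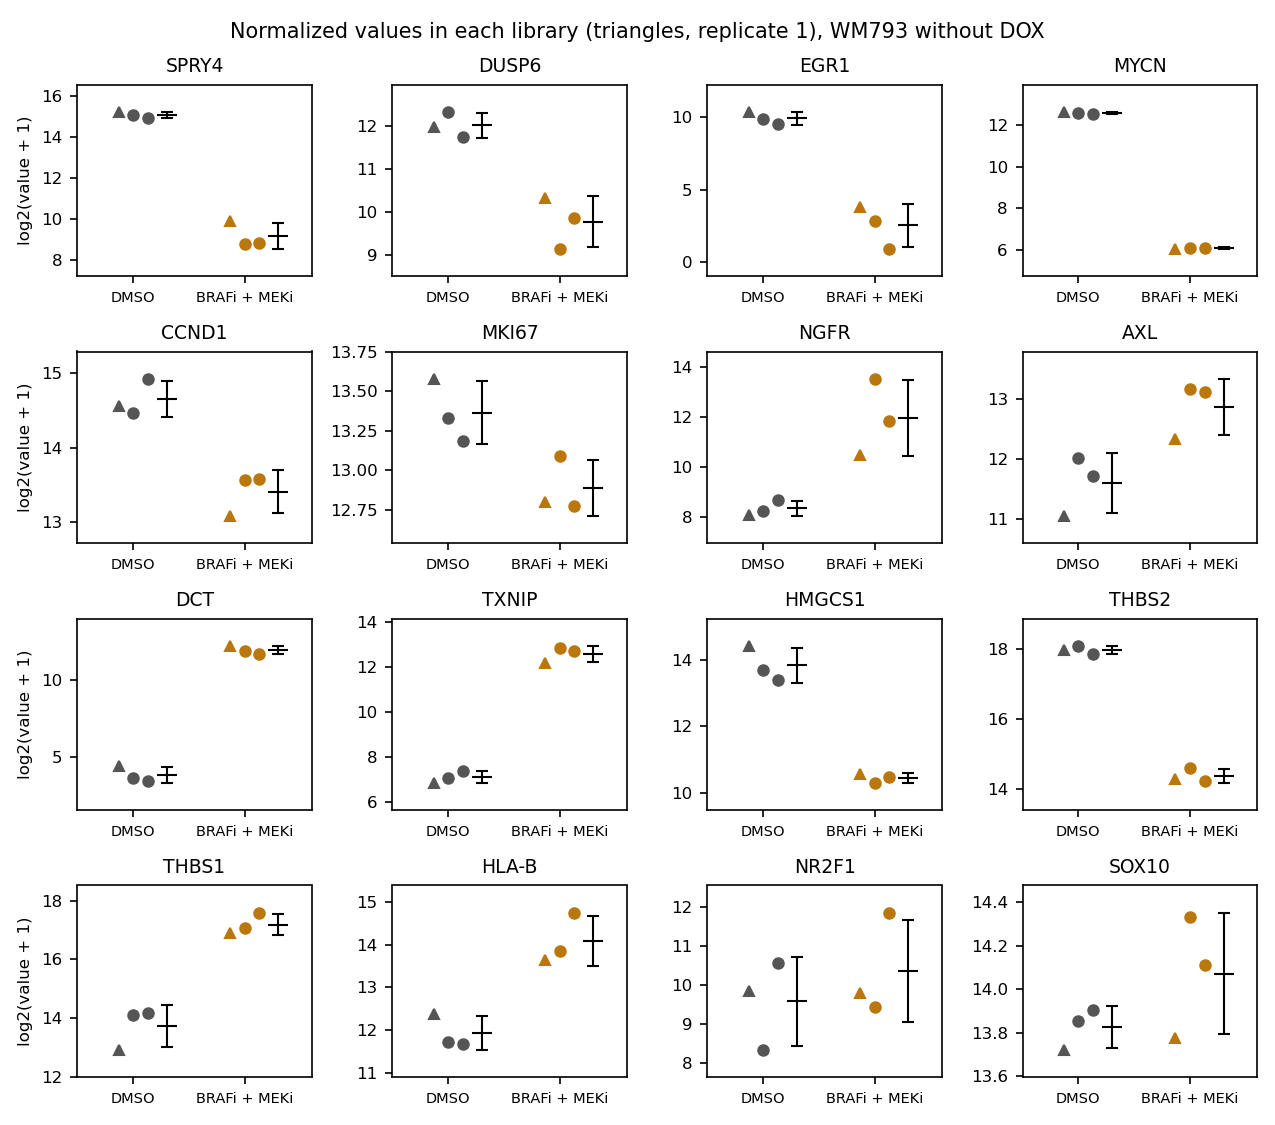
Normalized values of 16 genes in the 3 DMSO (grey) and 3 BRAFi + MEKi (orange) libraries on the log2(value + 1) scale, with triangles for replicate 1, circles for replicates 2 and 3, and the mean and SD of the log2 values beside each group; each panel has its own axis range. The groups are far apart for SPRY4, EGR1, MYCN, DCT and TXNIP, and they overlap for NR2F1 and SOX10.

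The largest rises were of genes near or at 0 in DMSO. LRRC7, a scaffold protein of neuronal synapses, was listed at 0 in all 3 DMSO libraries and at 647, 827 and 874 in treated libraries, and since a fold against 0 is set by the pseudocount of 1, none is given for it. OTOGL, an otogelin-like protein, measured 0, 21.2 and 0 against 1059, 1456 and 994. DCT (dopachrome tautomerase), an enzyme of melanin synthesis, measured 19.4, 11.2 and 9.43 in DMSO and 4742, 3844 and 3331 in treated libraries. It rose 297-fold between the group means (log2 fold change 8.16, SE 0.61, limma adjusted p = 3.8e-07). SHISA9 and GRIN3A, which belong to glutamate receptor complexes, measured 0, 36.3 and 33.3 against 2313, 1872 and 2356 and 0, 0 and 1.36 against 157, 224 and 415. CNR1, a cannabinoid receptor, ESRP1, a splicing regulator of epithelial cells, RGS8, a regulator of G protein signalling, and CCN5, a matricellular protein, complete the named protein-coding genes. In 9 of these 10 genes DMSO replicate 1, the shallow library, was at 0, so the size of the fold depends on the pseudocount. DIRC3-AS1 was the other of the 10 (0, 33.5 and 17.5 against 314, 2591 and 1311). The annotated span of DIRC3-AS1 overlaps IGFBP5 on the other strand, a gene that rose by 4.90 (SE 0.55, limma adjusted p = 1.2e-05), and the reads of both cannot be told apart. At higher levels, TRIM58, a ubiquitin ligase (chosen after its values were seen), measured 917, 911 and 746 against 36712, 54531 and 38995, a 50.6-fold rise.

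Transcripts of the ribosome and of ribosome production fell together. All 33 nucleolar and ribosome biogenesis genes fell, with a median log2 fold change of -1.41. Of 81 cytosolic ribosomal protein genes, 79 fell and none rose (median -1.42), and all 8 subunits of the cytosolic chaperonin fell (median -1.36). The background of lowered genes is 16.9%, and the ribosomal protein and chaperonin lists were made after results had been seen. POLR1B, a core subunit of RNA polymerase I, measured 5559, 4117 and 4074 in DMSO and 1509, 759 and 933 in treated libraries (log2 fold change -2.15, SE 0.23, limma adjusted p = 7.8e-06). NOP16, a nucleolar protein, measured 2048, 2326 and 2121 against 553, 439 and 484. Neither gene had overlapping groups. NPM1 (nucleophosmin), NCL (nucleolin), FBL (fibrillarin), DKC1 and NOP56 fell by 1.6, 1.25, 1.58, 1.84 and 1.73. RPL12 measured 50988, 63151 and 55867 against 14775, 13320 and 13815 (log2 fold change -2.02, SE 0.11, limma adjusted p = 5.0e-08), and RPS6 fell by 1.73 and RPL4 by 1.72. Within the ribosomal proteins the largest fall was that of RPL22L1, a paralog of RPL22, from 7563 ± 660 to 1744 ± 366 (SD, n = 3). HSPD1, the chaperonin of the mitochondrial matrix, measured 45362, 41574 and 38146 against 18472, 13746 and 14387. With the libraries rescaled to the same total the counts were 33 of 33, 78 of 81 and 7 of 8 lowered. In that setting 2693 of 22153 genes fell in all.

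Sterol, glucose and respiratory genes fell as well. Of 24 genes of the cholesterol list, 22 fell and none rose (median log2 fold change -1.62; background for the lists of this paragraph 16.9% lowered and 20.4% raised). HMGCS1, which makes HMG-CoA for the mevalonate route, measured 21731, 13276 and 10736 in DMSO and 1529, 1257 and 1415 in treated libraries, a 10.9-fold fall (log2 fold change -3.38, SE 0.27, limma adjusted p = 6.8e-07). DMSO replicate 1 was the highest of its group for HMGCS1 and SQLE, and in both every treated library lay below every DMSO library. DHCR7, the last step of the route, fell by 2.65 and SQLE fell by 2.51. SREBF2, the factor that drives the route, fell by 1.16. Of 25 glycolysis genes, 16 fell and 1 rose (median -0.88), the riser being PDK4, a brake on pyruvate oxidation (118, 64.5 and 93.1 against 1459, 434 and 448). GAPDH fell by 1.98 (SE 0.12, limma adjusted p = 6.9e-08), LDHA, which makes lactate, by 1.94 and PFKFB3, an activator of glycolysis, by 1.75. PDK1 fell by 1.57 (2719, 1333 and 1026 against 482, 576 and 510.1), so PDK1 and PDK4 moved in opposite directions. Of 30 genes of mitochondrial biogenesis and respiration, 22 fell and none rose (median -0.62), among them ATP5F1B of the ATP synthase by 1.02, UQCRC2 of complex III by 1.00 and the coactivator PPARGC1B by 1.09.

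The promoter of MVD, which encodes mevalonate diphosphate decarboxylase and fell by 1.39, is shown. MVD had the largest fall among list members searched whose window holds the core of the sterol element, CACCCCA on either strand. The 250 bases before the MVD start lie on the minus strand of chr16:88663092-88663341 (RefSeq, GRCh38.p14), with the match in capitals.
MVD: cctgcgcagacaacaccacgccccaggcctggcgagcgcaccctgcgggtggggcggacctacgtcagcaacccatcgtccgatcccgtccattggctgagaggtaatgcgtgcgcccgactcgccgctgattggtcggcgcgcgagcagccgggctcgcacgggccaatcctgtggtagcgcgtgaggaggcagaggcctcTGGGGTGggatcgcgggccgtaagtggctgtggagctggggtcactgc
Of 18 list members with a promoter in the table, 4 (22.2%) held the core, against 6.81% of all 27305 promoters.

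Cell cycle genes changed little in size, and most were not called. Of 44 DNA replication genes, 15 fell and none rose, with a median log2 fold change of -0.24, and of 46 mitosis genes, 15 fell and 2 rose, with a median of -0.25 (background 16.9% lowered and 20.4% raised). MKI67, a marker of cycling cells, measured 12218, 10290 and 9295 in DMSO and 7112, 8717 and 6999 in treated libraries. Its groups did not overlap, and it fell by 0.48 (SE 0.14, limma adjusted p = 0.014). That call was lost without DMSO replicate 1 (adjusted p = 0.067), without treated replicate 3 (0.062), after scaling to an equal total (log2 fold change -0.27, 0.12), and without replicate 1 of both groups (-0.32, 0.15). MCM7, a subunit of the replicative helicase, measured 9223, 13754 and 13305 against 6575, 6715 and 6213 and fell by 0.87 (SE 0.14, adjusted p = 0.00026). CDC6, which loads that helicase, fell by 0.77, and TIPIN, a fork protection factor, by 0.98. PCNA, the sliding clamp, measured 4630, 5477 and 5221 against 5238, 4816 and 5061, and TOP2A 19436, 15772 and 16688 against 14509, 15787 and 14626, and neither was called. CCNB1, the mitotic cyclin B1, measured 6269, 5075 and 5440 against 2205, 3629 and 2425 (log2 fold change -1.05, SE 0.17, limma adjusted p = 0.00022). PLK1, a mitotic kinase, fell by 1.01, a call lost without replicate 1 of both groups, and INCENP, of the chromosomal passenger complex, by 0.97. CDK1, BUB1, BUB1B, FOXM1, TK1 and CDKN3 were not called (log2 fold changes -0.11, -0.07, -0.41, 0.16, 0.19 and 0.03), although BUB1B was called as lowered with the replicate block (limma adjusted p = 0.012), with array weights (0.048) and without treated replicate 2 (0.033). CKS2, a CDK-binding protein, fell by 0.61. ANLN and KIF11, which act in cytokinesis and in the spindle, rose by 0.40 and 0.33 (adjusted p = 0.027 and 0.026), calls that each of 4 single libraries undid when left out. These counts moved both ways with the setting. Rescaled to the same total, 6 replication and 10 mitosis genes fell and 4 and 5 rose. In that setting 2693 of 22153 genes fell and 6030 rose in all, so the share of replication genes lowered was near that of all genes. Without replicate 1 of both groups 8 mitosis genes fell, and 3416 of 22074 genes fell in all. That share of mitosis genes was near the share of all genes. Without treated replicate 2, 22 mitosis genes fell and none rose (median -0.39), where 3228 genes fell in all. Without treated replicate 3, 10 mitosis genes fell, where 3207 genes fell in all. Without DMSO replicate 1, 18 replication genes fell (median -0.39), and array weights gave 20. Over all genes 3535 and 4443 fell in these 2 settings.

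Of 15 genes that govern entry into the cycle, 4 rose and 5 fell (background 20.4% raised and 16.9% lowered). With the same total 6 of them rose and 3 fell, where 6030 of 22153 genes rose and 2693 fell in all. CCND1, cyclin D1, measured 24227, 22626 and 31118 in DMSO and 8664, 12099 and 12284 in treated libraries (log2 fold change -1.24, SE 0.18, limma adjusted p = 0.00013). Its partner CDK6 measured 13951, 12449 and 10486 against 4491, 3942 and 4118 and fell by 1.55 (SE 0.15, adjusted p = 3.1e-06), and CDK4 fell by 0.41, a call lost with the same total (log2 fold change -0.21, adjusted p = 0.11). CDKN2B, an inhibitor of CDK4 and CDK6, measured 1875, 853 and 699.6 against 135, 199 and 99.9. Every treated library of CCND1, CDK6 and CDKN2B lay below every DMSO library, whereas CCND3 and CDK2 overlapped and were not called. CDKN2C, another inhibitor of this family, rose by 0.82, RB1 by 0.70 and RBL2 by 0.67. CDKN1A, the gene of p21, measured 2368, 2166 and 2093 against 1611, 2587 and 2222 and was not called (adjusted p = 0.89). CDKN1B, the gene of p27, measured 1643, 1136 and 1229 against 1624, 2051 and 1746 (log2 fold change 0.45, SE 0.17, limma adjusted p = 0.051), and was called as raised in 6 other settings, with adjusted p between 0.0029 (array weights) and 0.05 (replicate block), and at 0.017 without DMSO replicate 1.

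**Figure D3:**
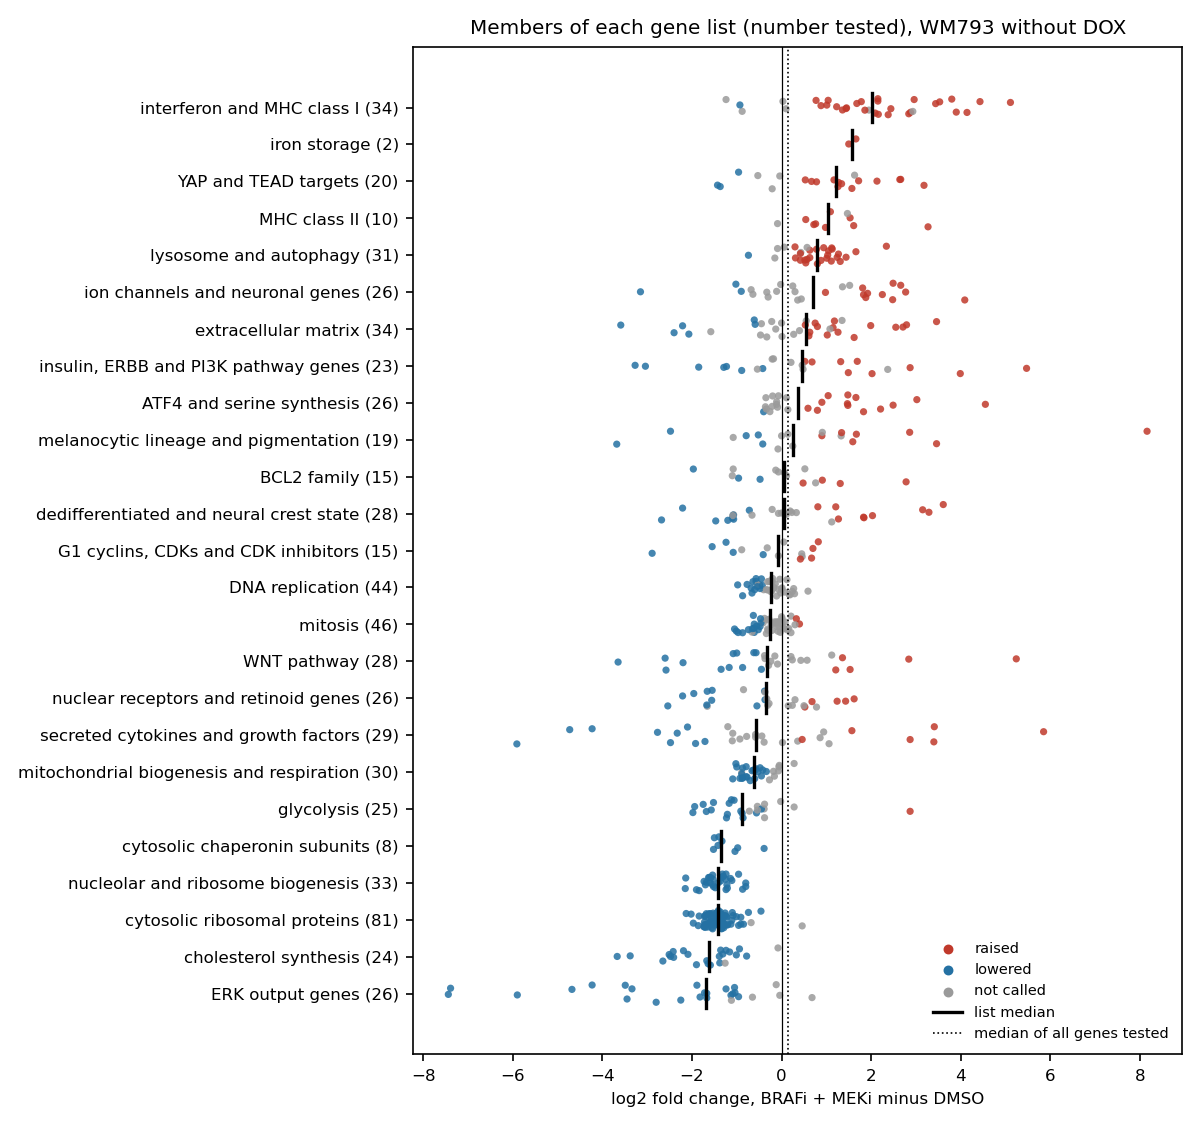
Log2 fold change (BRAFi + MEKi minus DMSO) of each tested member of 25 gene lists, in order of the list median (black bar); red members rose, blue fell and grey were not called, and the dotted line marks the median of all genes tested, 0.15. The ERK output list has the lowest median, -1.69, and the interferon and MHC class I list the highest, 2.02.

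Lysosomal genes rose. Of 31 genes of the lysosome and of autophagy, 25 rose and 1 fell (background 20.4% raised and 16.9% lowered), with a median of 0.78. CTSD, a lysosomal protease, measured 3182, 4772 and 5295 in DMSO and 19242, 25244 and 21460 in treated libraries (log2 fold change 2.34, SE 0.17, limma adjusted p = 3.9e-07). LAMP2, a membrane protein of the lysosome, measured 7246, 8002 and 7554 against 20428, 27261 and 24993. In both genes the lowest treated library exceeded the highest DMSO library. CTSF rose by 1.44, LAMP1 by 1.01 and PSAP, the precursor of the saposins, by 1.03. The member that fell was CTSK, a protease known from osteoclasts, by 0.74 (SE 0.12, adjusted p = 0.00021). TFEB, a regulator of lysosomal genes, was low (31.3, 67.3 and 102 against 106, 129 and 145), and its call (adjusted p = 0.047) was lost in 5 of 6 fits that left out a library.

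The promoter of CTSD is shown as that of the largest riser with an E-box, CACGTG, in the window among the members of this list searched. The E-box is the core of the element that TFEB-type factors and MYC-type factors bind. Its 250 bases before the start lie on the minus strand of chr11:1763928-1764177 (RefSeq, GRCh38.p14), with the E-box in capitals.
CTSD: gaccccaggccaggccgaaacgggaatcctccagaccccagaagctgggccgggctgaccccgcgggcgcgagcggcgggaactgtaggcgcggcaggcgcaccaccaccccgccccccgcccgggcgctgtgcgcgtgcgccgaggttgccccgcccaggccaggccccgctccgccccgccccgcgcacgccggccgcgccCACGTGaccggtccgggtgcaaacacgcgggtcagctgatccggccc
An E-box was present in 7 of 21 lysosomal promoters (33.3%), in 4 of 28 nucleolar promoters (14.3%) and in 6.49% of all 27305 promoters.

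Stress and insulin pathway genes rose in part. Of 26 genes of the ATF4 response and of serine synthesis, 13 rose and 1 fell (median log2 fold change 0.37, and 0.17 without replicate 1 of both groups; background for the lists of this paragraph 20.4% raised and 16.9% lowered). ATF4 itself measured 5866, 7416 and 9147 in DMSO and 12755, 13163 and 12493 in treated libraries and rose by 0.80 (SE 0.13, limma adjusted p = 0.00033). ATF3 rose by 2.49, CHAC1, which degrades glutathione, by 2.21, DDIT3 (CHOP) by 1.47, STC2 by 3.02 and ASNS, asparagine synthetase, by 1.04. NUPR1 was listed at 0 in all 3 DMSO libraries and at 17.4, 10.2 and 61.8 in treated ones. The serine synthesis enzymes PHGDH and PSAT1 were not called (log2 fold changes -0.11 and -0.09), and PSPH, the third enzyme, fell by 0.40 (adjusted p = 0.040), a call lost in 5 of 6 fits without a library. Of 23 genes of insulin, ERBB and PI3K signalling, 9 rose and 7 fell. TXNIP, a brake on glucose uptake that FOXO-type and glucose-sensing factors induce, measured 115, 136 and 166 against 4639, 7326 and 6778, a 45.0-fold rise (log2 fold change 5.47, SE 0.38, limma adjusted p = 2.5e-07). PIK3IP1, an inhibitor of PI3K, rose by 3.99, IRS2 by 2.02 and IRS1 by 1.69, whereas DEPTOR, an inhibitor of mTOR, fell by 3.27 and DDIT4, another, by 1.85. Of 15 genes of the BCL2 family, 4 rose and 3 fell, against the same background. Among the promoters of death, BMF, BAD and BAX rose by 2.78, 0.91 and 0.48, the groups of BAD overlapping. The BAX call was lost in 4 of 6 fits that left out a library (without DMSO replicates 1 and 2 and treated replicates 2 and 3). PMAIP1 (NOXA) fell by 1.97 and BID by 0.48. The BID call was lost in several settings, among them the same total (log2 fold change -0.28, limma adjusted p = 0.11). Among the survival proteins BCL2 rose by 1.31 and MCL1 fell by 0.96. BMF measured 446, 294 and 468 against 2437, 3363 and 2423. BCL2L11 (BIM), a further promoter of death, measured 824, 720.4 and 812 against 988, 586 and 640 and was not called (adjusted p = 0.73).

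Interferon-response and antigen presentation genes rose, with 27 of 34 interferon and MHC class I genes raised and 1 lowered (median 2.02) and 8 of 10 MHC class II genes raised and none lowered (median 1.04), against a background of 20.4% raised and 16.9% lowered. OAS2, a sensor of double-stranded RNA, measured 4.68, 14.7 and 60.7 in DMSO and 641, 462 and 756 in treated libraries (log2 fold change 5.11, SE 0.65, limma adjusted p = 3.8e-05). IRF7, a factor that amplifies the interferon response, measured 12.5, 19.5 and 46.5 against 181, 507 and 465. In OAS2 and IRF7 DMSO replicate 3 was the highest of its group and still below every treated library. IFI27 varied widely among treated libraries (25, 136 and 543) and was at 6.29, 6.20 and 5.63 in DMSO. HLA-B, a classical class I heavy chain, measured 5328, 3387 and 3258 against 12784, 14815 and 27537, and B2M, the light chain, rose by 1.23. The HLA genes share sequence, and the division of reads among them is uncertain. TAP2, a subunit of the peptide transporter, was the member that fell, by 0.93, whereas its partner TAP1 rose by 0.88. CXCL10, OASL, NLRC5, XAF1, BST2 and PSMB8 were not called. CIITA, the master regulator of class II, measured 52.4, 109 and 233 against 1472, 893 and 934, CD74, the invariant chain, rose by 1.61 and HLA-DRA by 1.53. Without replicate 1 of both groups 4 of the 10 class II genes were raised, where 3770 of 22074 genes rose in all. The call of HLA-DRA was lost in that setting (limma adjusted p = 0.14).

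The promoter of IFI27 is shown because it had the largest rise among list members searched with a match to the interferon-stimulated response element, GAAANNGAAA on either strand. Its 250 bases before the start lie on the plus strand of chr14:94110486-94110735 (RefSeq, GRCh38.p14), with the matches in capitals.
IFI27: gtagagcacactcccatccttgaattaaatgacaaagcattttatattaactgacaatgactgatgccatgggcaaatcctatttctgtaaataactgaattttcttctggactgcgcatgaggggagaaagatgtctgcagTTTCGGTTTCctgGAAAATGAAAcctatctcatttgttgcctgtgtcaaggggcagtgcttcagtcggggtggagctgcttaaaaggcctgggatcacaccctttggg
Matches were found in 14 of 25 promoters of this list (56.0%) and in 3.07% of all 27305 promoters. TAP2, which fell, has a match as well.

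Lineage genes moved in both directions. Of 19 melanocytic lineage and pigmentation genes tested, 7 rose and 5 fell (background 20.4% raised and 16.9% lowered), with a median of 0.25 that was 0.39 without DMSO replicate 3 or without treated replicate 1 and 0.57 in a fit of the 6 libraries alone. Of the 8 melanocytic markers tested, most of which are also in that list, 5 rose and 1 fell, with a median of 1.12. The summed level of the 10 markers was between 25722 and 30691 in DMSO and between 45771 and 54975 in treated libraries. Most of that sum is S100B and SOX10, and most of its rise is S100B. PAX3, a factor of the melanocyte lineage, rose by 0.90 (limma adjusted p = 0.00017), and TYRP1, a melanin enzyme, was listed at 0 in all 3 DMSO libraries and at 15.8, 26 and 1.92 in treated libraries. MITF, the master regulator of melanocytes, measured 769, 526 and 345 in DMSO and 601, 353 and 556 in treated libraries (log2 fold change -0.08, SE 0.37, limma adjusted p = 0.89). SOX10 measured 13495, 14819 and 15326 against 14032, 20596 and 17678 (log2 fold change 0.25, adjusted p = 0.19), and it was called as raised without treated replicate 1 (adjusted p = 0.035) and with the same total (0.016). Neither regulator had separated groups. PMEL, of the melanosome matrix, rose by 1.59 at a low level, a call lost without replicate 1 of both groups, and S100B by 1.34 (7876, 13103 and 11407 against 24487, 28201 and 27412), whereas OCA2 fell by 3.68, GPR143 by 2.48 and MC1R, the melanocortin receptor, by 0.79. S100A1, a marker outside this list, fell by 2.04. With the same total 9 lineage genes rose and 3 fell, where 6030 of 22153 genes rose and 2693 fell in all. BANCR, a long noncoding RNA (chosen after its values were seen), measured 0, 1.83 and 8.64 against 305, 342 and 381. Of 28 genes of the dedifferentiated and neural-crest-like state, 9 rose and 8 fell (background 20.4% and 16.9%). NGFR, a neural crest receptor, measured 274, 306 and 412 against 1439, 11890 and 3709, and the treated libraries differed widely among themselves (log2 fold change 3.61, SE 0.82, limma adjusted p = 0.0033). AXL, a receptor tyrosine kinase, measured 2130, 4174 and 3386 against 5180, 9165 and 8881 and rose by 1.27 (SE 0.29, adjusted p = 0.0033). SEMA3C rose by 3.30, ZEB2 by 2.03 and WNT5A by 1.21. TWIST1, ZEB1 and TNC fell by 2.68, 1.10 and 2.21, so ZEB1 and ZEB2 moved in opposite directions. EGFR measured 2538, 2172 and 2194 against 2014, 1812 and 2161 and was not called (adjusted p = 0.17). ERBB3 measured 60044, 70125 and 74041 against 46573, 54940 and 51050, a fall of 0.42 (SE 0.12, adjusted p = 0.012) that was not called with the same total (log2 fold change -0.21, 0.15). SOX9 was near 0 in replicate 1 of both groups (0 and 0.872) and between 35.8 and 104 in the other 4 libraries. Among ion channel and neuronal genes, 11 of 26 rose and 3 fell (background 20.4% and 16.9%), with SCN2A, a sodium channel, at 8.04, 1.66 and 4.55 against 84.5, 88.6 and 85.5 and NRXN3 raised by 2.77.

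Genes of the cell surroundings changed in both directions. Of 20 YAP and TEAD targets, 13 rose and 3 fell (median 1.22; background for the lists of this paragraph 20.4% raised and 16.9% lowered). CCN1 and CCN2, matricellular proteins, measured 390.4, 966 and 618 against 5101, 5103 and 6701 and 459, 1994 and 938 against 4444, 7623 and 6385. AMOTL2 rose by 2.64, whereas AMOTL1, its paralog, fell by 1.37 and PTPN14 by 0.96. Of 34 matrix genes, 15 rose and 6 fell. COL5A1 rose by 2.71 and COL5A2 by 2.79, which encode chains of the same collagen, and MMP1, a collagenase, fell by 2.40 (14984, 28254 and 12579 against 2665, 2746 and 4978). Of 29 secreted cytokines and growth factors, 6 rose, a share near the background, and 9 fell. LIF, a cytokine of the IL-6 family, measured 22239, 25529 and 17426 against 513, 2152 and 1345 (log2 fold change -4.23, SE 0.51, limma adjusted p = 2.4e-05). IL6 measured 105, 124 and 134 against 1539, 1138 and 1191 (log2 fold change 3.40, SE 0.34, limma adjusted p = 3.9e-06), so these related cytokines moved apart. PDGFB rose by 5.85 and CCL2, which attracts monocytes, by 3.41 (1399, 4031 and 4801 against 27377, 32442 and 36816), and CCL20 fell by 4.73. CXCL8 and CXCL1 were lowest in replicate 1 of both groups and were not called (limma adjusted p = 0.12 and 0.094), but both were called as lowered with the replicate block (0.00028 and 0.00069) and with array weights (0.016 for each). CXCL8 measured 42709, 141154 and 129501 against 20249, 55975 and 56554. Of 28 WNT pathway genes, 5 rose and 12 fell. The receptor FZD1 measured 8242, 7876 and 8214 against 1321, 1369 and 1329 (log2 fold change -2.60, SE 0.10, limma adjusted p = 4.9e-09), FZD7 fell by 2.58, LGR5 by 3.65 and FZD2 rose by 1.36. DKK1, a secreted WNT inhibitor, measured 5.84, 27 and 4.96 against 293, 597 and 347, and DKK3 rose by 2.84.

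The promoter of CCN2 is shown as that of the largest riser among the YAP and TEAD targets searched with CATTCC, the TEAD motif, on either strand of the window. Its 250 bases before the start lie on the minus strand of chr6:131951373-131951622 (RefSeq, GRCh38.p14), with the matches in capitals.
CCN2: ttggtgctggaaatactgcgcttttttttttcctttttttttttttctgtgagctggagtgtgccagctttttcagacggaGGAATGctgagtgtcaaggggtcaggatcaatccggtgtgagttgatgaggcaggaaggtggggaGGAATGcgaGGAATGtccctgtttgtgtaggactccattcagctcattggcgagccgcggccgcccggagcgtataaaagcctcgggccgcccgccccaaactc
The motif occurred in 5 of 12 promoters of the list (41.7%) and in 11.9% of all 27305 promoters.

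The endogenous and introduced NR2F1 cannot be separated in these values. NR2F1, an orphan nuclear receptor on chr5:93583222-93594611, measured 917, 321 and 1511 in DMSO and 894, 689 and 3690 in treated libraries. The groups overlapped and the spread within each was wide (log2 fold change 0.78, SE 0.57, limma adjusted p = 0.31), and array weights gave a call (1.73, adjusted p = 0.027). NR2F2 fell by 0.55 (SE 0.19, adjusted p = 0.038), a call that 3 of 6 fits without a library lost, with a log2 fold change of -0.36 without DMSO replicate 1. It was also lost with the same total (-0.35, adjusted p = 0.18), in the 6 libraries alone (0.062) and without replicate 1 of both groups (0.11). NR2F6 was not called. Of 26 nuclear receptor and retinoid genes, 5 rose, a share near the background, and 10 fell (background 20.4% raised and 16.9% lowered). With the same total 6 of them rose and 7 fell, where 6030 of 22153 genes rose and 2693 fell in all. RARB, a retinoic acid receptor that retinoic acid itself induces, measured 83.1, 62.2 and 68.1 against 192, 209 and 260.2 (log2 fold change 1.62, SE 0.32, limma adjusted p = 0.0013). CRABP2, a retinoic acid carrier, fell by 1.96, and NR4A1, an early response receptor, by 2.54. ADAM10, a sheddase, rose by 0.57 (6428, 6455 and 6653 against 9891, 8590 and 10586).

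By gene type, 3419 of 15412 protein-coding genes rose and 3385 fell, and 849 of 4501 long noncoding RNA genes rose and 211 fell. The shares raised, 22.18% and 18.86%, were near the background of 20.4%, and the shares lowered were 21.96% and 4.688% against 16.9%. The noncoding genes were low, with a median mean value of 3.9 against 677, and without DMSO replicate 1 the noncoding counts were 675 and 212.

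The response was then set against that of 1205Lu, a line derived from WM793, and of A375, both of which carry the same Tet repressor and DOX-inducible NR2F1, and the difference of responses was tested in a fit of all 36 libraries. Each line has its own DMSO libraries. A375 cells were grown in another medium, with 10% FBS, so line and medium cannot be told apart there. The response of WM793 was higher than that of 1205Lu in 2126 genes (7.94% of 26779) and lower in 1746 (6.52%), and against A375 it was higher in 3412 (12.7%) and lower in 2705 (10.1%). Cell cycle genes stood out by count. Of 46 mitosis genes, the response of WM793 was higher in 43 against 1205Lu and in 45 against A375, and lower in none, with list medians of -0.25 in WM793, -2.39 in 1205Lu and -3.75 in A375. Of 44 DNA replication genes it was higher in 33 and 36, with medians of -0.24, -1.86 and -2.42. MKI67 had log2 fold changes of -0.48 in WM793, -2.69 in 1205Lu and -4.11 in A375, and both differences from WM793 were called (2.21, SE 0.45, limma adjusted p = 0.00091, and 3.64, SE 0.45, adjusted p = 5.3e-07). Under the alternative settings the mitosis counts were between 43 and 44 and between 44 and 45, and the replication counts between 20 and 37 and between 34 and 40.

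Ribosomal protein genes differed the other way. The response of WM793 was lower in 72 of 81 against 1205Lu and in 57 against A375 (medians -1.42, -0.48 and -0.81). It was higher in 1 gene of this list against each line. Of 33 nucleolar genes it was lower in 16 and 24. Of 26 ATF4 and serine synthesis genes the response of WM793 was higher in 18 and 13 and lower in none. Over all genes the shares were 6.52% and 10.1% lower and 7.94% and 12.7% higher. Under the alternative settings the ribosomal protein counts were between 68 and 73 and between 41 and 63. The nucleolar counts were between 11 and 24 and between 22 and 27, and the ATF4 counts between 16 and 21 and between 11 and 17. ERK output genes had medians of -1.69, -2.56 and -2.32, and their differences were divided, 7 higher and 4 lower against 1205Lu and 7 higher and 6 lower against A375. The response of ETV4 was smaller in WM793 (-3.34 against -5.99 and -7.13) and that of EGR1 was larger (-7.40 against -4.06 and -4.19), and each of these differences was called. DUSP6 had log2 fold changes of -2.26, -4.08 and -3.13, and its differences were not called (adjusted p = 0.095 and 0.43). MYCN had log2 fold changes of -6.49 in WM793 and 2.38 in 1205Lu, a difference of -8.87 (SE 0.62, limma adjusted p = 2.4e-10). MYCN was low in both other lines, with means of 31.1 and 159.9 in 1205Lu DMSO and treated libraries, and in A375 it was at 0 in 5 of 6 libraries and at 4.50 in the other. AXL had log2 fold changes of 1.27 in WM793, -0.61 in 1205Lu and -1.83 in A375, ERBB3 had -0.42 against 2.66 and 1.04, and all 4 differences were called. For NR2F1 (0.78, 0.09 and 1.45), SOX10, MYC and DCT no difference was called.

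With DOX, which induces NR2F1, the response of WM793 to BRAFi + MEKi differed from that without DOX in no gene of 22074 (0.0% called in either direction, limma's interaction contrast at an adjusted p under 0.05), and 653 genes were higher and 609 lower at an unadjusted p under 0.05. Array weights gave 28 and 15 called. List medians with DOX were -1.33 for ERK output genes, -0.52 for mitosis, -1.33 for ribosomal proteins and 2.46 for interferon and MHC class I genes, and a p that misses the threshold does not show that the responses are the same.

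**Figure D4:**
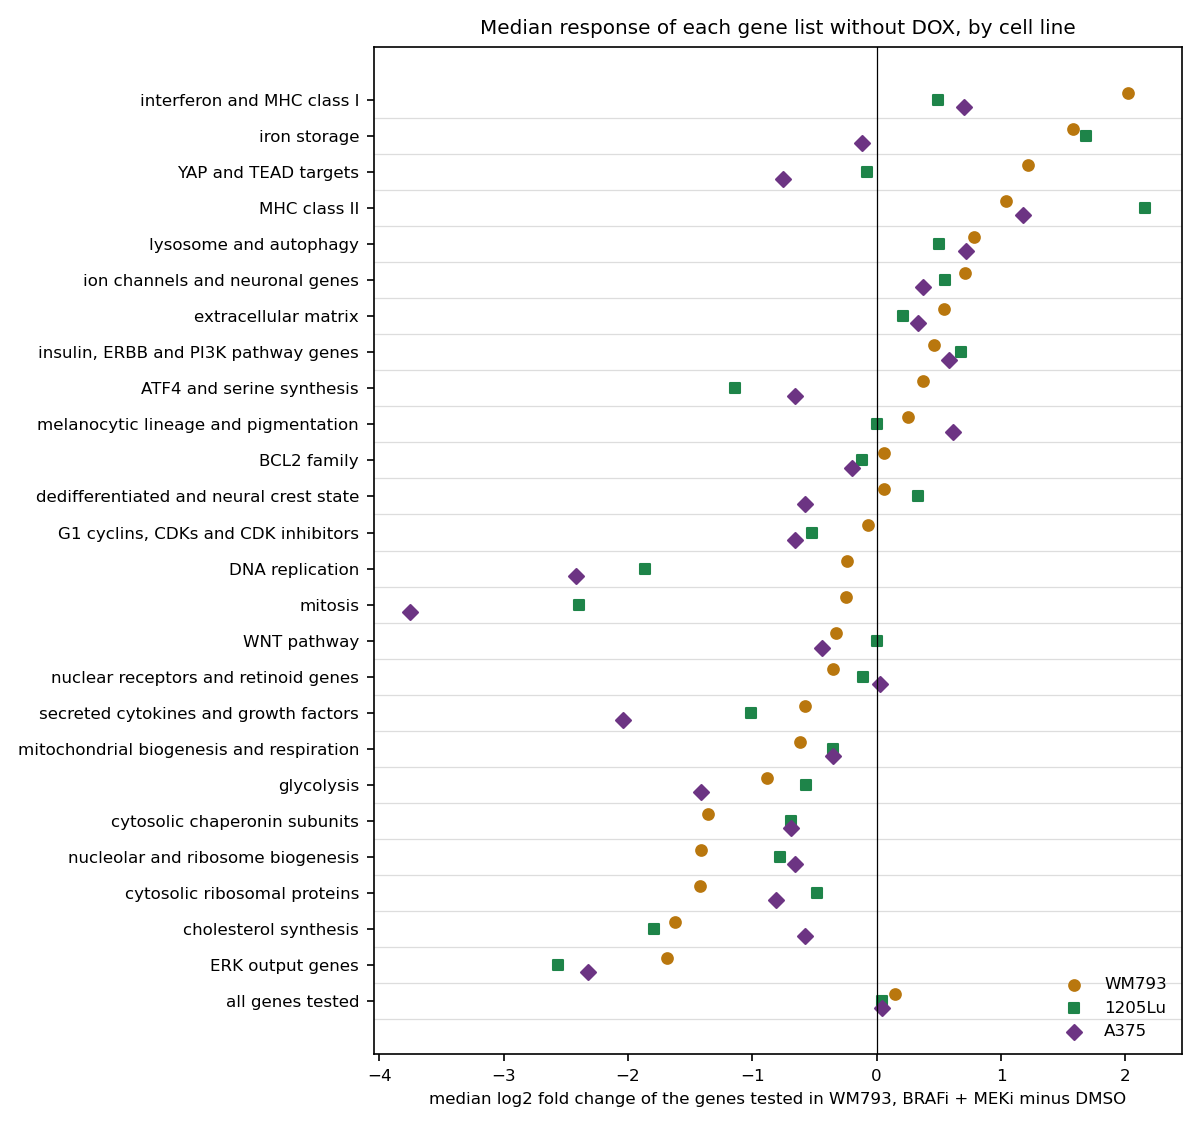
Median log2 fold change (BRAFi + MEKi minus DMSO, without DOX) of each gene list in WM793 (circles), 1205Lu (squares) and A375 (diamonds), over the genes tested in WM793. Mitosis lies at -0.25, -2.39 and -3.75 and DNA replication at -0.24, -1.86 and -2.42, whereas the medians of all genes tested lie at 0.15, 0.04 and 0.04.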

How the data were processed

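RNA was sequenced from 36 libraries, of which 6 are compared here. Per the submitters' processing notes, the authors used STAR, RSEM and DESeq2 on GRCh38. The deposited values are a normalized signal per gene, not whole reads: between 9.595% and 44.5% of low values lay within 0.02 of a whole step. Over which libraries they were scaled was not tested, and levels compared between lines depend on it. Depth was estimated from the commonest low value. Of 60656 gene identifiers, 60401 had a symbol.

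The files hold no counts, so limma 3.58.1 in R 4.3.3 (moderated test with trend) was run on log2(value + 1), fitted on the 12 WM793 libraries keeping genes whose mean reached 1 in any group, with Benjamini-Hochberg adjustment at 0.05. Differences between lines used all 36 libraries. On simulated data for the WM793 comparison, with 22074 genes, 68 of 100 genes changed by 1 and 89 of 100 changed by 2 on the log2 scale were recovered, and 10 unchanged genes were called. The changed genes were drawn above a floor in DMSO, and the noise was normal with the same SD in every library. The recovery therefore does not describe low genes, the shallow DMSO replicate 1 or a response as broad as the one found.

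The members and gene lists were chosen with earlier results of these data known. Genes named are a fixed set, the 10 largest rises and 10 largest falls among called genes without overlap and with a mean of at least 100, and up to 3 rises and 3 falls per list. The most abundant genes and further list members were named after their values were seen. Promoters are 250 bases from RefSeq, GRCh38.p14, without those on chr8. Alternatives were another pseudocount, filter, scaling, replicate block, array weights, the 6 libraries alone, and each library left out. With 3 against 3 an exact permutation test of a single gene cannot go below 0.1, so none was used. Some genes of the lists are not reported here by name.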

Additional observations from a re-analysis of the deposited data

Results flagged for a closer look

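The test of the difference between the responses of WM793 and another line (limma, 36 libraries, adjusted p under 0.05) passed in 3872 genes against 1205Lu and in 6117 against A375. Of 24 named genes compared, those below passed, and each value is the log2 response of WM793 minus that of the other line.

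Among ERK output genes, ETV4 differed by 2.65 from 1205Lu and by 3.79 from A375, ETV5 by 2.56 from 1205Lu, SPRY4 by -1.41 from A375 and CCND1 by 1.45 from A375. EGR3 differed by -2.84 and -4.80, and EGR1 by -3.34 and -3.20. MYCN differed by -8.87 from 1205Lu and by -5.67 from A375, and HAPLN1 by -7.35 and -3.14. Some treated WM793 values of EGR1 and HAPLN1 were near 0, so the sizes for these genes depend on the pseudocount. MYCN was at 0 in 5 of the 6 A375 libraries, so its difference from that line is close to the response of WM793 alone. HAPLN1 was at 0 in all 1205Lu libraries, so its difference from that line is the response of WM793 alone.

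Among lineage and receptor genes, AXL differed by 1.88 and 3.10, ERBB3 by -3.08 and -1.46, EGFR by 1.71 from A375 and MITF by -1.64 from A375. MKI67 differed by 2.21 and 3.64, and BCL2L11 by -1.84 from 1205Lu. LRRC7 differed by 9.60 and 7.12 on the log2(value + 1) scale, sizes set by the pseudocount, since it was at 0 in the DMSO libraries of WM793 and in both 1205Lu groups. OTOGL differed by 4.80 from A375. No gene was flagged for a single outlying library, since groups of 3 are too small for that test.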

How the results depend on the processing

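Over 14 settings of the comparison, 3678 to 6030 genes rose and 2693 to 4443 fell, and no gene called in the deposited scaling was called in the opposite direction. The widest change came from rescaling each library to the same total, where the median log2 fold change went from 0.15 to 0.33, 6030 genes rose and 2693 fell. With the replicate block, 4986 rose and 4087 fell. The replicate numbers were not taken to pair the samples, because the same-numbered libraries correlated in their deviations with r of 0.117, 0.0294 and 0.068 over all genes tested and of 0.3, 0.0458 and 0.233 over genes with a mean of 30 or more, so that not every pair was above 0.1. Treated replicates 1 and 3 correlated best with the DMSO library of their own number, and treated replicate 2 correlated best with DMSO replicate 3. Without replicate 1 of both groups, a setting chosen after seeing the data, 3770 rose and 3416 fell. Leaving out each library in turn gave 3678 to 4179 rises and 3207 to 3535 falls. For the difference made by DOX, array weights gave 43 genes, and leaving out each library gave 0 to 1. Of the values of the 157 genes named by rule under the alternatives, 2108 kept direction and side of the threshold, 60 lost the call, 12 gained it, and 17 values that were not called in either setting changed sign. Their causes were not tested. Depth limits DMSO replicate 1 most, where a single read was worth 5.09 units.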
